A study of Mus musculus with 9 samples.

Results

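The heat shock and DNAJ chaperone genes were followed across 9 RNA sequencing libraries whose labels name 4T1, a line of mouse mammary carcinoma. The genes were taken by symbol, as those that begin with Hspa, Hspb, Hspd, Hspe, Hsph, Hsp90, Dnaja, Dnajb or Dnajc and a number. The 13 rows of pseudogenes were left out, as were 5 chaperones of the endoplasmic reticulum (Hspa5, Hsp90b1, Dnajb9, Dnajc3 and Dnajb11). This gave 68 of the 52550 genes in the table, of which 56 had a value of at least 1 FPKM in at least 3 libraries and were tested. FPKM counts sequenced fragments relative to transcript length and library size. The set is usually called cytosolic, but several members work elsewhere, such as Hspa9, Hspd1 and Hspe1 in mitochondria and Hspa13, Dnajc1 and Dnajc10 in the endoplasmic reticulum, so the set is described here by its symbols.

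There were 3 libraries each of control, of PD-1 treatment and of LY500307+PD-1 treatment, and both treated groups share PD-1. LY500307 activates estrogen receptor beta. PD-1 is a receptor that restrains T cells. Dose, duration, the agent behind the PD-1 treatment and the source of the cells, in culture or in a tumour, are not stated in the labels. Groups were taken from the sample titles, since the treatment label of PD-1 libraries 2 and 3 carries those numbers in the name of the treatment. Whether libraries of 1 group stem from different cultures or mice is not labelled, so the p-values cover the spread among these libraries alone, which may be technical.

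Chaperones bind proteins that are unfolded or not yet folded and keep them from aggregating. Hsp70 does this in cycles of ATP binding and hydrolysis. J domain proteins (the DNAJ genes) bring it clients and start hydrolysis, Hsp110 and other exchange factors release the ADP, and Hsp90 receives clients such as kinases and steroid hormone receptors, the estrogen receptors among them. In stressed cells, heat shock factor 1 binds repeats of GAA and TTC in promoters (heat shock elements) and raises transcription of the inducible members.

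Hspa1a and Hspa1b, the paired genes of the inducible Hsp70, lie on chromosome 17 of GRCm38 (34969190 to 34972156 and 34956436 to 34959238, both on the minus strand). The bases before their starts are shown because these genes had the largest spread within groups on the log2(FPKM + 1) scale and varied together. The 2 sequences are RefSeq's (GRCm38.p6) and differ at 3 of 250 bases. Capitals mark the letters GAANNTTC, a pair of heat shock units, whose match ends 97 bases before the start in both.

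Hspa1a, chr17:34972157-34972406, minus strand: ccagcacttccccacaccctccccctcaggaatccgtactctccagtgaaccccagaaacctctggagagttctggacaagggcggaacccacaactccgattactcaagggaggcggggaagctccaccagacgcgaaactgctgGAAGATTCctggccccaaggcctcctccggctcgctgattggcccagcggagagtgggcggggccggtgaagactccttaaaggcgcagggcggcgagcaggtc

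Hspa1b, chr17:34959239-34959488, minus strand: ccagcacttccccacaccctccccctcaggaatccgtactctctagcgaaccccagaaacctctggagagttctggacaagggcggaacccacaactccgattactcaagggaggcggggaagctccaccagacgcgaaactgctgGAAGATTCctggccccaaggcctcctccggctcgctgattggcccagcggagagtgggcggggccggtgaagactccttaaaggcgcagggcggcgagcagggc

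The open reading frames of Hspa1a and Hspa1b were identical at 99.4% of aligned bases, with 11 differences in 1929 columns, so reads from the coding part cannot be placed with certainty and the 2 values may be split between the genes by the counting. The whole transcripts were identical at 84.5% of aligned columns. Hspa1l, the next most similar of the 4 compared, reached 82.8% in the open reading frame.

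Heat shock element letters were searched on both strands in the RefSeq promoter windows (250 bases before to 50 after a start). These windows were given for 54 of the 68 genes, and Dnajc2, Dnajc5, Dnajc5b, Dnajc11, Dnajc12, Dnajc18, Dnajc22, Dnajc30, Hsp90aa1, Hsp90ab1, Hspa8, Hspa9, Hspa13 and Hspb2 had none. The pair of units (GAANNTTC or TTCNNGAA, each its own reverse complement) was found in a window of 16 of the 54 genes (29.6%), against 17.0% of all 27025 genes with a window. An element of at least 3 alternating units, which contains both pairs, was found for Dnajb6, Hspd1, Hspe1 and Hsph1, which is 4 of 54 (7.41%) against 0.662% of all genes. The match of Hspd1 and Hspe1 is one stretch of chromosome 1 that holds 4 alternating units. It lies between the start of Hspe1 and 1 of the 2 RefSeq starts of Hspd1. The window of the other Hspd1 start had no match, and the annotated Hspd1 gene contains the site and overlaps Hspe1. The match of Hsph1 to 3 units lies after its start and is not shown. Hsph1 also has a pair of units before its RefSeq starts, ending 26 and 47 bases before them, which is not shown either. The sites of Dnajb6, Hspd1 and Hspe1 and of some members with a pair of units are shown with 5 bases on either side. Capitals again mark the matched letters. These sites are shown because they belong to members whose levels behaved differently from each other below. The Dnajb4 site lies before a RefSeq start inside the annotated gene, and the window at the outer start of Dnajb4 had no match. A match of letters is a description and not a binding site.

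Hspd1, chr1:55088054-55088081, minus strand: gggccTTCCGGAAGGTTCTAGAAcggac

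Hspe1, chr1:55088054-55088081, plus strand: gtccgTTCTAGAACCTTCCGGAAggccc

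Dnajb6, chr5:29735847-29735869, plus strand: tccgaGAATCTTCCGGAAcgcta

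Hspb1, chr5:135887797-135887814, plus strand: caagaGAAGTTTCcagat

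Hspb1, chr5:135887817-135887834, plus strand: gggcaGAACCTTCctggc

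Dnaja1, chr4:40722339-40722356, plus strand: ctctaGAAAATTCtacga

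Dnajb4, chr3:152193847-152193864, minus strand: cgctgTTCTAGAAagtac

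Dnajc27, chr12:4082356-4082373, plus strand: tcggtGAAGATTCcagga

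Each library summed to between 348764 and 370214 FPKM. Markers of cells other than carcinoma were present in every library, as sums of fixed lists, with 894 to 2805 FPKM for macrophages and monocytes, 36.3 to 89.7 for T and NK cells and 49.7 to 112 for endothelium, beside 1518 to 4039 FPKM for carcinoma epithelium. Epithelial markers such as Krt8 and Krt18 were thus present, but this list does not tell 4T1 from other epithelium. No value here can be read as a level in carcinoma cells alone. In such bulk samples fewer cells of a type and less RNA per cell cannot be told apart. LY500307+PD-1 library 2 stood apart, at 197 FPKM for the skeletal muscle list against 42.1 to 68.3 in the other libraries, 471 FPKM for Krt14 against 37.1 to 141 and 64.4 FPKM for Krt5 against 0.0544 to 11.5, both keratins of basal epithelium. All values below come from this mixture.

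The chaperone genes together made up 0.640% to 0.749% of all FPKM in a library, between 2309 and 2705 FPKM, a ratio of 1.17. The Hsp90 genes gave 887 to 1247 FPKM, the Hsp70 genes 501.03 to 734, the DNAJC genes 251 to 287, the mitochondrial chaperonin 168 to 225, the DNAJA genes 79.6 to 95.4, the DNAJB genes 60.2 to 81.8, the small heat shock proteins 48.1 to 89.2 and the Hsp110 genes 51.5 to 69.1. By mean level, 5 members stood above 100 FPKM, 26 between 10 and 100, and 25 tested members under 10. The order of the highest was Hsp90ab1 (914), Hspa8 (428), Hsp90aa1 (133), Hspd1 (113), Hspa1b (100.1), Hspe1 (86.9), Hspa9 (83.5) and Dnaja2 (49.5). Hsp90ab1 and Hspa8 did not overlap with each other or with any other member in the 9 libraries, while the ranges of Hspd1, Hsp90aa1 and Hspa1b overlapped.

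**Figure D1:**
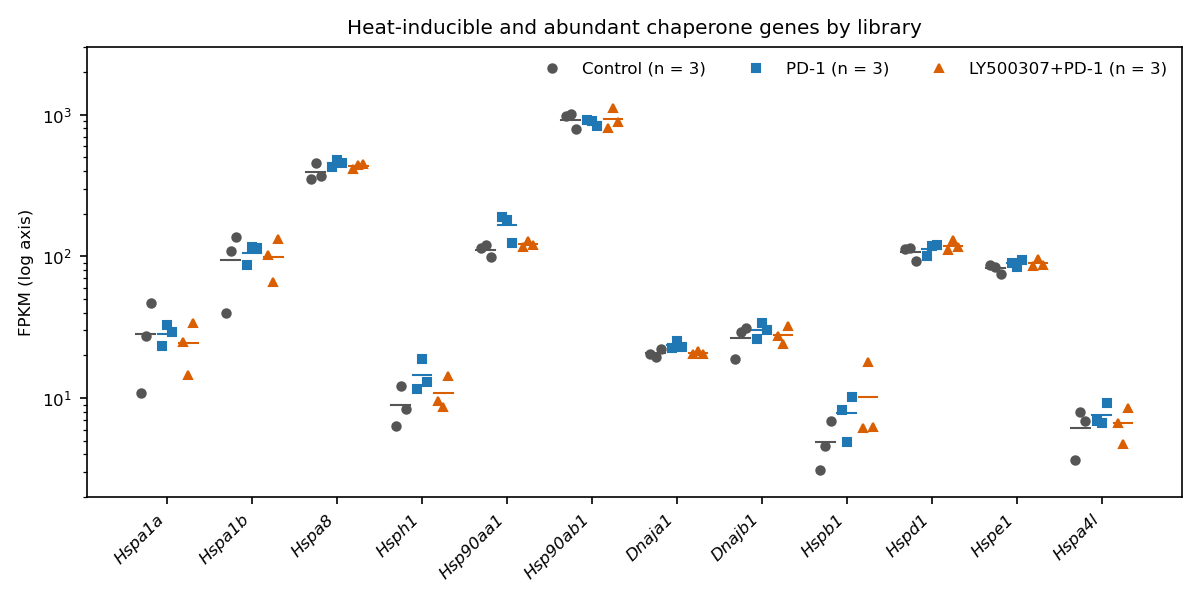
FPKM on a log axis for 12 heat-inducible or abundant chaperone genes, with 1 point per library and a line at each group mean (3 libraries per group). Hsp90ab1 and Hspa8 lie highest, and Hspa1a spans 10.9 to 46.7 FPKM, with its lowest and its highest value both in control libraries.

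Among the Hsp70 genes, the inducible pair had the largest spread within groups on the log2(FPKM + 1) scale. Hspa1a stood at 10.9, 27.4 and 46.7 FPKM in control libraries 1 to 3, 23.3, 32.9 and 29.1 in PD-1 and 24.9, 14.6 and 33.6 in LY500307+PD-1. Hspa1b stood at 39.6, 109 and 136 FPKM, at 86.2, 116 and 114, and at 101.5, 65.6 and 132 in the same order. Control library 1 was lowest for both genes and LY500307+PD-1 library 2 next lowest, control library 3 was highest, and the 3 groups overlapped. The summed pair ran over a 3.62-fold range, against 1.17-fold for all members together, and Hspa1b stood 2.92 to 4.49 times above Hspa1a.

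The other Hsp70 genes had a smaller spread on that scale, although Hspa2, a low gene, had a ratio of 3.51 between its highest and lowest library, against 3.44 for Hspa1b. Hspa8, the constitutive Hsp70 that folds new proteins and uncoats clathrin vesicles (chromosome 9, 40800984 to 40810087), stood at 354, 458 and 371 FPKM in control, 429, 482 and 459 in PD-1 and 413, 438 and 448 in LY500307+PD-1. Hspa9, the mitochondrial Hsp70 that drives protein import (chromosome 18, 34937414 to 34954357), stood at 70.6, 82.4 and 74.7, at 80.9, 74.8 and 103.5, and at 89.96, 84.1 and 90.3 FPKM. For Hspa9, each LY500307+PD-1 library lay above each control library, while PD-1 overlapped both. Hspa14, a partner of the ribosome, ran from 10.6 to 15.3 FPKM and Hspa13 from 7.17 to 10.5. The distant relative Hspa12b ran from 0.971 to 2.48 FPKM, and the germ cell members Hspa1l and Hspa2 from 1.804 to 2.29 and from 0.556 to 1.95. Hspa12a was not tested, at 0.0720 to 0.235 FPKM.

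The Hsp110 genes, exchange factors of Hsp70, divided by level. Hspa4 ran from 36.5 to 45.9 FPKM. Hsph1, the heat-inducible member (chromosome 5, 149614287 to 149636376), stood at 6.31, 12.1 and 8.42 FPKM in control, 11.6, 19.0 and 13.0 in PD-1 and 9.53, 8.64 and 14.2 in LY500307+PD-1. Hspa4l stood at 3.69, 7.97 and 6.93, at 6.91, 6.64 and 9.22, and at 6.71, 4.72 and 8.52 FPKM. Control library 1 was again the lowest for Hsph1 and Hspa4l, and the groups overlapped for both, with 2 of the 3 PD-1 libraries of Hsph1 above every control library.

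Both Hsp90 genes were abundant. Hsp90ab1, the constitutive isoform (chromosome 17, 45567775 to 45573271), stood at 975.04, 1005 and 789 FPKM in control, 916, 896 and 831 in PD-1 and 809, 1119 and 884 in LY500307+PD-1. Hsp90aa1, the inducible isoform (chromosome 12, 110690605 to 110702728), stood at 114, 121 and 98.4 FPKM in control, 191, 180 and 125 in PD-1 and 116, 128 and 120 in LY500307+PD-1. For Hsp90aa1, each PD-1 library lay above each control library, PD-1 library 3 at 125 FPKM against 121 in the highest control, while the LY500307+PD-1 libraries overlapped both groups.

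The mitochondrial chaperonin genes share a promoter region. Hspd1, the chaperonin barrel (chromosome 1, 55077835 to 55088243), ran from 93.0 to 130 FPKM, and Hspe1, its lid (chromosome 1, 55088132 to 55091307), from 75.4 to 95.4. Control library 3 was lowest for both, and the groups overlapped.

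The small heat shock proteins bind unfolded clients without ATP. Hspb8, which works with the cochaperone Bag3, was the highest, at 29.5 to 54.0 FPKM, followed by Hspb2 (5.61 to 13.4), Hspb6 (6.26 to 10.9) and Hspb1. Hspb1 (chromosome 5, 135887919 to 135889563) stood at 3.13, 4.62 and 6.87 FPKM in control, 8.21, 4.91 and 10.2 in PD-1 and 6.17, 18.0 and 6.30 in LY500307+PD-1. The highest value was that of LY500307+PD-1 library 2, the library with the raised keratin and muscle markers, whose part in this value was not tested. Hspb7, a small heat shock protein of heart and skeletal muscle, stood at 0.1725, 0.824 and 0.418 FPKM in control, 0.267, 0.333 and 1.16 in PD-1 and 1.44, 1.40 and 0.875 in LY500307+PD-1. Hspb2 lies next to and overlaps Cryab on the other strand, and the use of strand in the counting is not given, so reads of these 2 genes may not be told apart. Cryab ran from 6.45 to 16.9 FPKM, with control library 1 lowest for both. Hspb3 (0 to 0.295 FPKM) and Hspb9 (0.0470 to 1.33) were not tested. Of the other symbols in Hspb, Hspbp1, an exchange factor of Hsp70, ran from 27.5 to 38.2 FPKM and Hspb11, a subunit of intraflagellar transport, from 8.55 to 11.9.

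The DNAJA genes, the J proteins closest to bacterial DnaJ, were among the steadiest, with Dnaja2 at 44.9 to 57.3 FPKM, Dnaja1 at 19.6 to 25.1, the mitochondrial Dnaja3 at 8.66 to 12.3 and Dnaja4 at 3.73 to 4.54. Of the DNAJB genes, Dnajb1, the heat-inducible partner of Hspa1a and Hspa8 (chromosome 8, 83608193 to 83612653), stood at 18.9, 29.3 and 31.3 FPKM in control, 26.2, 33.8 and 30.1 in PD-1 and 27.4, 24.1 and 32.2 in LY500307+PD-1. Its order of libraries was close to that of Hspa1a, with control library 1 lowest and LY500307+PD-1 library 2 next. Dnajb6, a suppressor of aggregation, ran from 14.7 to 17.9 FPKM, Dnajb12, an anchored J protein of the endoplasmic reticulum, from 7.55 to 13.7, and Dnajb2, which passes clients to the proteasome, from 7.64 to 14.6. Dnajb14 ran from 1.24 to 2.07 FPKM and Dnajb5 from 0.686 to 1.43.

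Dnajb4, a cytosolic J protein of Hsp70 (chromosome 3, 152178511 to 152210302), stood at 3.03, 3.46 and 4.66 FPKM in control, 3.91, 3.92 and 4.86 in PD-1 and 1.43, 1.69 and 2.33 in LY500307+PD-1. Every LY500307+PD-1 library lay below every library of the other groups, and control and PD-1 overlapped. Dnajb3, Dnajb7, Dnajb8 and Dnajb13 were not tested, with 0.843 FPKM as the highest value.

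The DNAJC genes hold a J domain and little else in common. The highest were Dnajc15, of the mitochondrial inner membrane (26.7 to 54.1 FPKM), Dnajc8, of the spliceosome (23.6 to 44.8), Dnajc7, a cochaperone with tetratricopeptide repeats (21.6 to 26.3), Dnajc10, a disulfide reductase (19.7 to 26.9), and Dnajc4 (17.6 to 29.3). Dnajc9, a histone chaperone, ran from 10.1 to 18.3 FPKM and Dnajc2, the J protein of the ribosome, from 10.6 to 19.8, both with LY500307+PD-1 library 2 highest. Dnajc5b and Dnajc5g were listed at 0 in every library, and Dnajc6, Dnajc12 and Dnajc28 reached at most 0.742 FPKM and were not tested. The other 15 DNAJC genes lay between 0.991 and 14.4 FPKM.

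**Figure D2:**
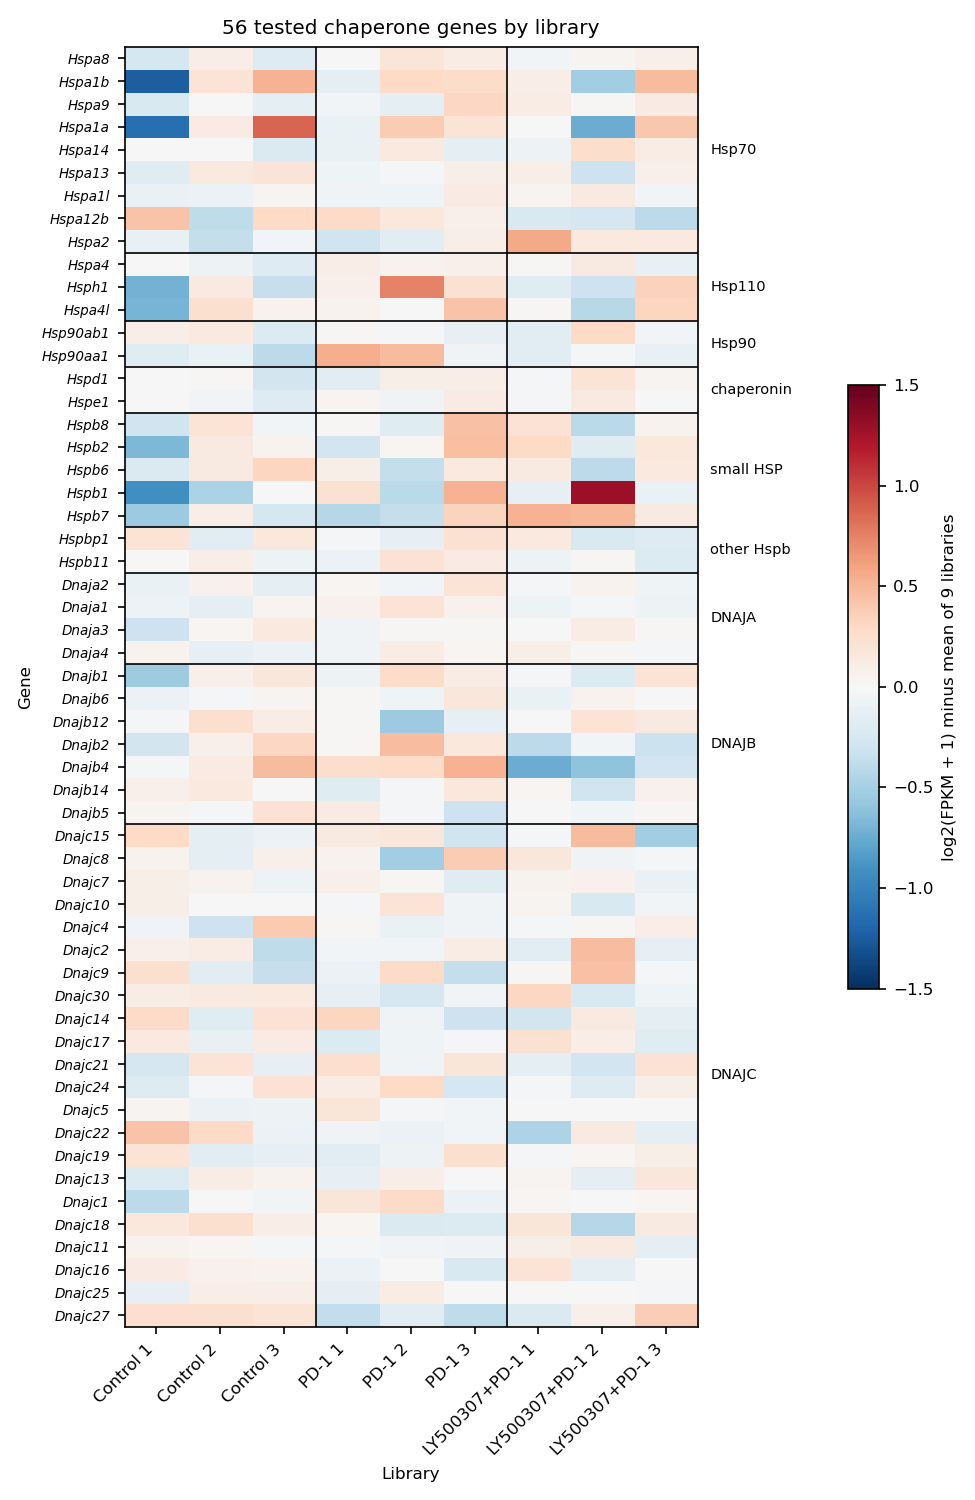
Log2(FPKM + 1) of the 56 tested chaperone genes (rows, by class and mean level) in the 9 libraries (columns), as the difference from the gene's mean over all libraries. The darkest cells are those of Hspa1a and Hspa1b in control library 1 and of Hspb1 in LY500307+PD-1 library 2, and Dnajb4 is low in the 3 LY500307+PD-1 libraries.

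Spread within groups was taken as the SD of log2(FPKM + 1) around the group means. The median over the 56 genes was 0.18, against 0.21 over all 13990 genes tested. Hspa1a (0.69), Hspa1b (0.63) and Hspb1 (0.60) had the largest, at the 97.2, 97.4 and 95.2 percentile of the genes nearest in level. They were followed by Hspa4l (0.38), Hsph1 (0.37), Hspb2 (0.36), Dnajc15 (0.35) and Hspb7 (0.33). At the other end, Dnaja1 (0.07), Dnaja4 (0.08) and Dnajc5 (0.08) lay at the 3.19, 0.998 and 5.79 percentile. Control library 1 was the lowest of the 9 libraries for 14 of the 56 genes, against 11.9% of all genes tested. PD-1 library 2, PD-1 library 3 and LY500307+PD-1 library 2 were each the highest for 11 members (19.6%), against 8.63%, 10.8% and 17.1% of all genes.

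The members of the heat shock response did not vary as a single block. Pearson's r with Hspa1a, over log2(FPKM + 1) in the 9 libraries, is given as a description, since the libraries share their cell mixture and groups. It was 0.96 for Hspa1b (whose reads may be split with Hspa1a), 0.93 for Dnajb1, 0.84 for Hspa13, 0.83 for Dnajc13 and 0.81 for Hspa4l. It was 0.58 for Hsph1, 0.32 for Hspa8, -0.45 for Hspd1, -0.60 for Hspe1 and -0.69 for Hsp90ab1. In all, 5 of 55 members (9.09%) exceeded 0.8, against 2.06% of all genes tested, and the median r was 0.03 for the members and -0.03 for all genes. Without control library 1, 3 of 55 members (5.45%) exceeded 0.8, against 3.90% of all genes, and r was 0.96 for Hspa1b, 0.86 for Dnajb1, 0.84 for Hspa13, 0.71 for Dnajc13, 0.60 for Hspa4l and 0.27 for Hsph1. The 4 tested genes with the element of 3 units had r between -0.60 and 0.58.

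The 6 genes most like Hspa1a by r were Rsrp1 (0.98), Hspa1b, Nfil3 (0.96), Bcl6 (0.95), Gm6598 (0.95) and Crim1 (0.94). Hspa5, the Hsp70 of the endoplasmic reticulum, had an r of 0.92 and stood at 77.1, 113 and 121 FPKM in control, 100.3, 129 and 127 in PD-1 and 113, 89.1 and 130.2 in LY500307+PD-1. Its r was the highest in a fixed list of 18 genes of the endoplasmic reticulum, in which the lowest r was -0.28 (Creld2). The summed T and NK cell markers were also lowest in control library 1 (36.3 FPKM) and LY500307+PD-1 library 2 (38.5), against 47.5 in control library 2 and 76.0 to 89.7 in the other libraries. Of that list, only Gzmb (5.95 against 23.4 FPKM) and Prf1 (4.33 against 6.86) were lower in control library 1 than in control library 2. The other markers, such as Cd3d (2.22 against 0.821) and Cd8a (3.19 against 1.63), were higher there. Summed immediate early genes, which respond to handling, were 552 FPKM in control library 1 and 619 in LY500307+PD-1 library 2, within 433 to 602 in the others for the first and above them for the second. Members of the immediate early list had an r with Hspa1a between -0.83 (Ier2) and 0.87 (Klf2), so the sum does not stand for each of them. Summed carcinoma epithelium markers were highest in LY500307+PD-1 library 2 (4039 FPKM) and control library 1 (2595), against 1518 to 2422 in the other libraries. Members of that list had an r with Hspa1a between -0.88 (Cldn4) and 0.21 (Cldn7). The part of any of these lists in the levels of Hspa1a was not tested.

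**Figure D3:**
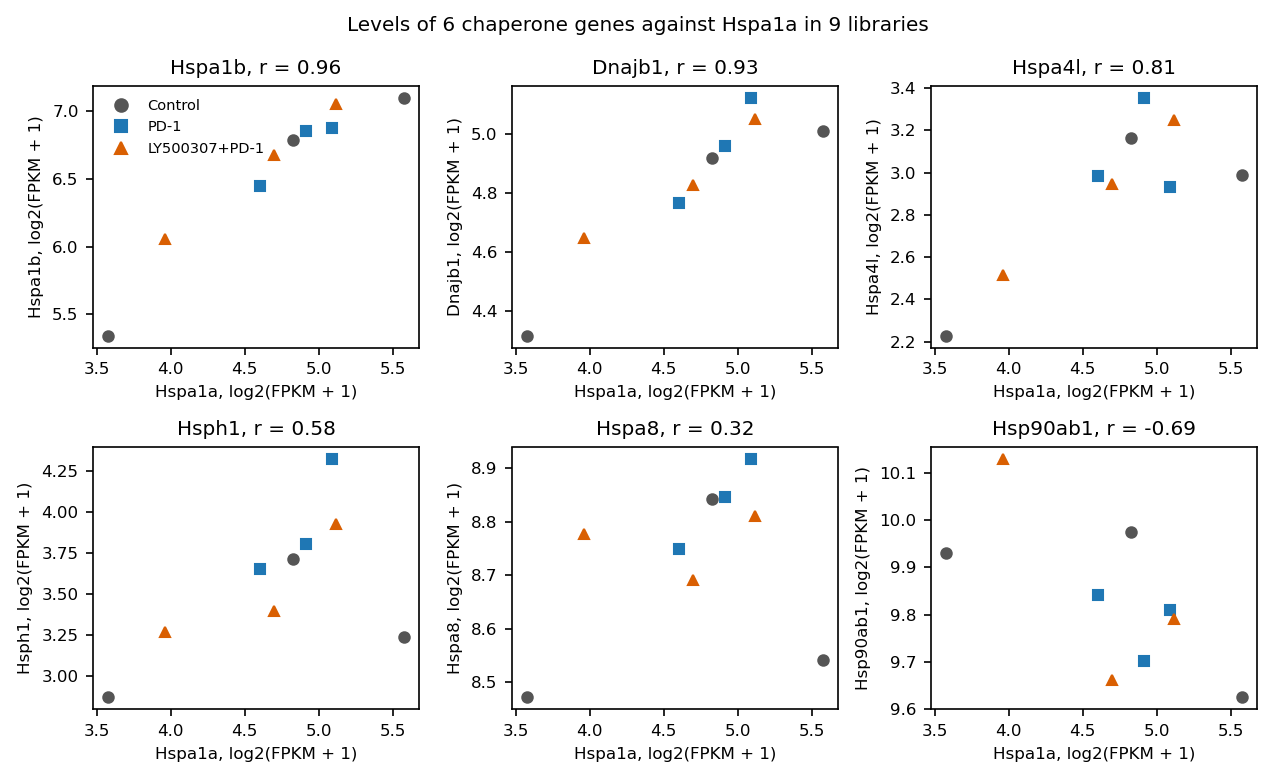
Log2(FPKM + 1) of 6 chaperone genes (vertical axes) against that of Hspa1a (horizontal axes), 1 point per library, with Pearson's r over 9 libraries. Hspa1b and Dnajb1 rise with Hspa1a through all 3 groups, and Hsp90ab1 has an r of -0.69.

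PD-1 was first set against control. With limma's test and Benjamini-Hochberg adjustment, 0 of 56 chaperone genes had an adjusted p under 0.05, as had 0% of the 13990 genes tested. The median log2 fold change was 0.05 over the members, with 36 of 56 higher in PD-1, and -0.01 over all genes, of which 48.3% were higher. At an unadjusted p under 0.05 there were 3 members, Hsp90aa1, Hsph1 and Dnajc27 (5.36%), against 2.44% of all genes, and 8 members had groups that did not overlap (14.3%), against 6.68% of all genes. Of these, Hspa4, Hsp90aa1 and Dnaja1 were higher and Dnajc27, Dnajc18, Dnajc11, Dnajc16 and Dnajc30 lower in PD-1.

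Of the higher members, Hsp90aa1 averaged 165 ± 35.3 FPKM (SD, n = 3) in PD-1 against 111 ± 11.6 in control, which is 0.55 as log2 fold change (95% interval 0.19 to 0.91, SE 0.16). Its unadjusted p was 0.0077 and limma's adjusted p 1. Hsph1 averaged 14.5 ± 3.92 against 8.94 ± 2.92 FPKM, or a log2 fold change of 0.65 (SE 0.27), and its groups overlapped. Hspa8 followed with 0.22 (SE 0.11) and Dnajc1, a J protein of the endoplasmic reticulum, with 0.27 (SE 0.15). On the lower side, Dnajc27, a J protein with a Rab-like GTPase domain (chromosome 12, 4082583 to 4110606), stood at 2.07, 2.06 and 1.97 FPKM in control, 1.01, 1.29 and 0.991 in PD-1 and 1.23, 1.72 and 2.35 in LY500307+PD-1. Its log2 fold change in PD-1 against control was -0.54 (SE 0.17, unadjusted p = 0.012), and no PD-1 library reached the lowest control. Dnajb12 (-0.33, SE 0.15), Dnajc30 (-0.28, SE 0.14) and Dnajc18 (-0.29, SE 0.18) had the next smallest p. Without PD-1 library 2, Dnajb12 stood at -0.16, and without control library 1, Dnajc1 stood at 0.15, Hspa8 at 0.15 and Hsph1 at 0.45.

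The inducible genes showed wide intervals in PD-1 against control. Log2 fold changes were 0.21 (95% interval -0.85 to 1.27) for Hspa1a, 0.31 (-0.66 to 1.29) for Hspa1b, 0.20 (-0.24 to 0.64) for Dnajb1, 0.30 (-0.32 to 0.91) for Hspa4l and 0.58 (-0.36 to 1.52) for Hspb1. They were narrower for Hsp90ab1 (-0.06, -0.38 to 0.26), Hspd1 (0.08, -0.19 to 0.36), Hspe1 (0.12, -0.11 to 0.34) and Dnaja1 (0.17, -0.04 to 0.38). Without control library 1 the sign turned for the inducible pair, at -0.33 for Hspa1a and -0.22 for Hspa1b, Hspa4l stood at 0.0137 and Hspb1 at 0.35, and without control library 3 the inducible pair stood at 0.66 each.

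The second comparison asked what LY500307 together with PD-1 treatment did, against the same control libraries. Again 0 of 56 members and 0% of all genes passed. The median log2 fold change was 0.01 over the members, 32 of 56 higher, and 0.00 over all genes. At an unadjusted p under 0.05 there were 3 members (5.36%), Dnajb4, Hspa2 and Hspb7, against 4.01% of all genes, and 5 members had groups that did not overlap (8.93%), against 7.94% of all genes. Hspb7, Hspa9, Dnajc1 and Hspa2 were the higher ones and Dnajb4 the lower one. Hspa2 and Hspb7 passed the filter on low values through LY500307+PD-1, where they are high, and without them the counts were 1 of 54 (1.85%) and 3 of 54 (5.56%).

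Dnajb4 averaged 1.82 ± 0.462 FPKM in LY500307+PD-1 against 3.72 ± 0.844 in control. Its log2 fold change on the log2(FPKM + 1) scale was -0.74 (95% interval -1.14 to -0.34, SE 0.18), with an unadjusted p of 0.0023 and limma's adjusted p of 1. With 0.1 as pseudocount it was -0.997. Dnajc22 (-0.37, SE 0.18), Hspa12b (-0.41, SE 0.21) and Dnajb2 (-0.29, SE 0.18) came next on the lower side. They were less far from 0 when 1 library was left out, with -0.22 for Dnajc22 without LY500307+PD-1 library 1, -0.25 for Hspa12b without control library 1 and -0.15 for Dnajb2 without control library 3. Hspa12b, known from endothelium, stood at 2.48, 0.991 and 2.18 FPKM in control, 2.16, 1.89 and 1.74 in PD-1 and 1.21, 1.18 and 0.971 in LY500307+PD-1. The summed endothelial markers were 75.4 to 112 FPKM in control, 65.4 to 89.7 in PD-1 and 49.7 to 64.7 in LY500307+PD-1, and all 11 tested markers had a negative log2 fold change in that comparison (median -0.49). Their part in the value of Hspa12b or Dnajb4 was not tested.

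On the higher side of that comparison stood Hspa2, Hspb7, Hspb1 and Hspa9. Hspa2 (chromosome 12, 76404176 to 76406938) stood at 0.835, 0.556 and 0.928 FPKM in control, 0.6205, 0.776 and 1.13 in PD-1 and 1.95, 1.19 and 1.21 in LY500307+PD-1, a log2 fold change of 0.46 (SE 0.19). Hspb7 differed by 0.62 (SE 0.26). Outside LY500307+PD-1, 1 library of each gene reached 1 FPKM, so these values are descriptions. The 8 tested skeletal muscle markers all had positive log2 fold changes, none of which passed, with a median of 0.69 that was 0.26 without LY500307+PD-1 library 2. The sum of the muscle list was 68.3, 197 and 52.6 FPKM in LY500307+PD-1, its library 3 within the 42.1 to 60.9 of control, and its part in Hspb7 was not tested. Hspb1 differed by 0.82 (SE 0.41) with all libraries and by 0.35 without LY500307+PD-1 library 2. Hspa9 differed by 0.21 (SE 0.13).

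The remaining inducible and abundant genes gave log2 fold changes of -0.07 (95% interval -1.13 to 0.99) for Hspa1a, 0.19 (-0.79 to 1.16) for Hspa1b, 0.26 (-0.34 to 0.86) for Hsph1, 0.09 (-0.35 to 0.54) for Dnajb1 and 0.11 (-0.50 to 0.73) for Hspa4l in LY500307+PD-1 against control. They were 0.14 (-0.11 to 0.39) for Hspa8, 0.13 (-0.23 to 0.49) for Hsp90aa1, 0.02 (-0.30 to 0.34) for Hsp90ab1, 0.00 (-0.21 to 0.21) for Dnaja1, 0.15 (-0.12 to 0.43) for Hspd1 and 0.11 (-0.11 to 0.34) for Hspe1. All of these intervals include 0. Without control library 1, Hsph1 stood at 0.0579 and Hspa8 at 0.0676. Leaving out control library 1 gave -0.61 for Hspa1a and -0.35 for Hspa1b, and leaving out control library 3 gave 0.39 and 0.53.

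**Figure D4:**
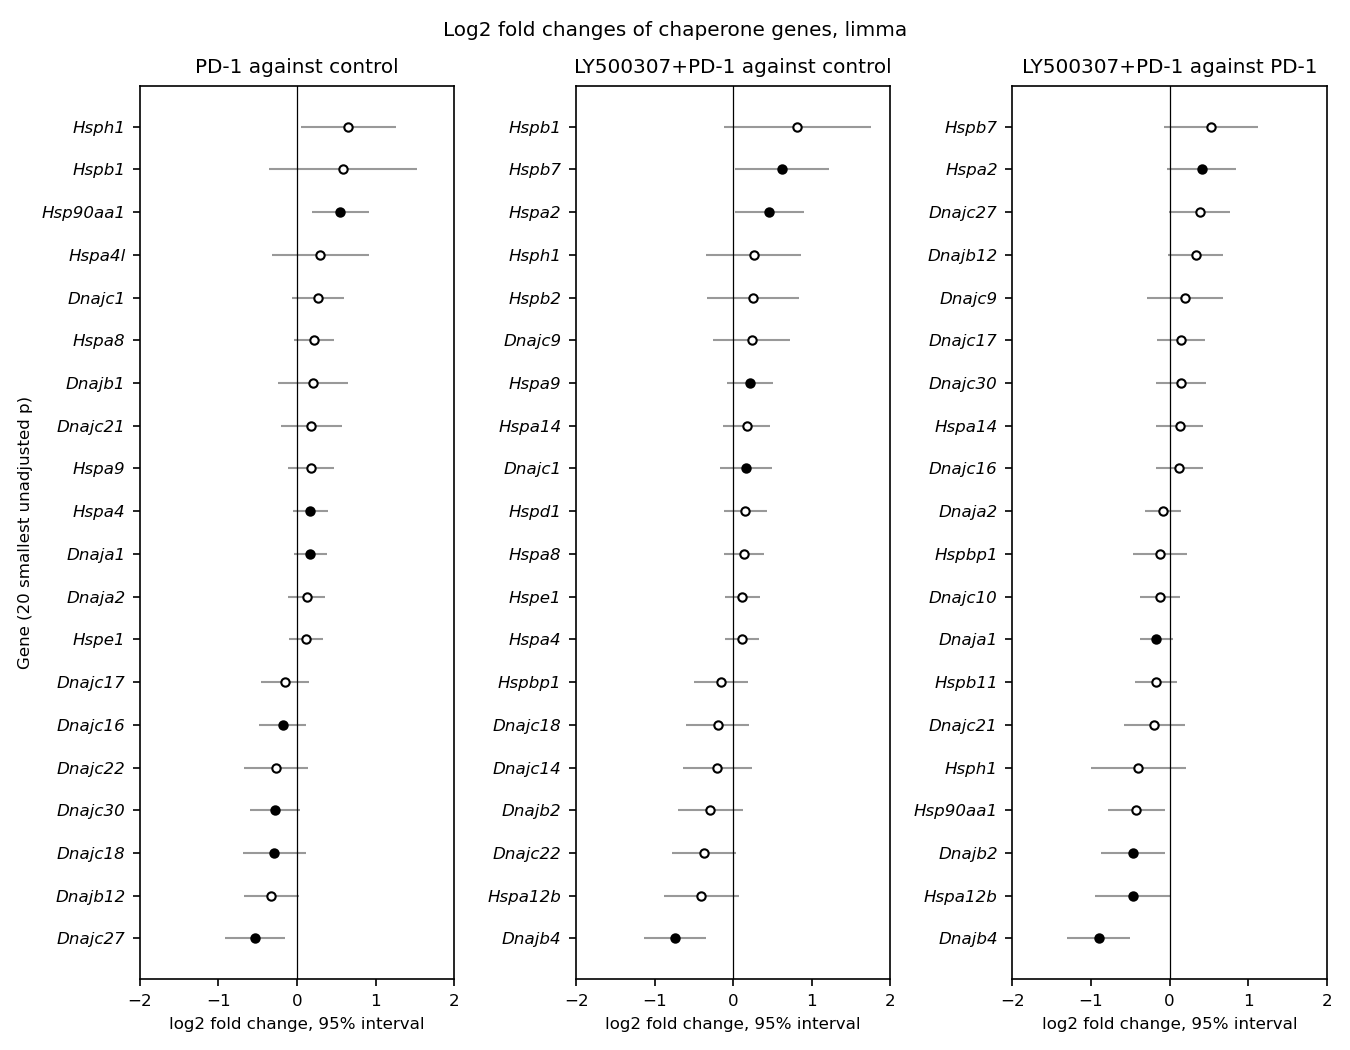
Log2 fold changes on the log2(FPKM + 1) scale with 95% intervals for the 20 chaperone genes lowest in unadjusted p, per comparison, filled where the libraries of the 2 groups do not overlap. Dnajb4 is lowest in both comparisons of LY500307+PD-1, at -0.74 and -0.90, and no gene passed the adjusted test.

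The third comparison asked what LY500307 added to PD-1 treatment. No member passed (0 of 56, against 0% of all genes). The median was 0.00 for both the members and all genes. Dnajb4, Hsp90aa1 and Dnajb2 had an unadjusted p under 0.05 (5.36%), against 2.84% of all genes, and all 3 were lower with LY500307. Groups did not overlap for 5 members (8.93%), against 7.6% of all genes, with Hspa2 higher and Dnajb2, Dnajb4, Dnaja1 and Hspa12b lower, and for 4 of 54 (7.41%) without Hspa2 and Hspb7. Some lists of cell markers and the cell cycle genes had log2 fold changes all or mostly of 1 sign here too, and none of their genes passed. The 11 tested endothelial markers were all negative (median -0.44). The 8 tested skeletal muscle markers were all positive (median 0.61, and 0.15 without LY500307+PD-1 library 2). The 4 tested erythroid markers were all negative (median -1.36; sums of 82.1 to 137 FPKM in PD-1, 25.1 to 66.3 in LY500307+PD-1 and 54.1 to 91.0 in control), and all 4 were positive in PD-1 against control (median 0.76). Of the neutrophil markers 7 of 8 were negative (median -0.69), and of the cell cycle genes 11 of 12 were positive (median 0.40, and 0.14 without LY500307+PD-1 library 2). The part of these lists in the values of Dnajb4, Hsp90aa1 and Dnajb2 was not tested.

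Dnajb4 averaged 1.82 ± 0.462 FPKM against 4.23 ± 0.549 in PD-1. Its log2 fold change on the log2(FPKM + 1) scale was -0.90 (95% interval -1.30 to -0.50, SE 0.18), with an unadjusted p of 0.00065 and limma's adjusted p of 0.91. Leaving out any 1 library moved this value only between -1.03 and -0.80. With 0.1 as pseudocount the log2 fold change was -1.196. Hsp90aa1 averaged 121 ± 6.37 against 165 ± 35.3 FPKM, or a log2 fold change of -0.42 (SE 0.16), with overlapping groups. Dnajb2 stood at 7.64, 10.1 and 8.08 FPKM against 10.4, 14.6 and 11.7, a log2 fold change of -0.46 (SE 0.18), and Hspa12b differed by -0.47 (SE 0.21). On the higher side were Dnajc27 (0.38, SE 0.17), Dnajb12 (0.33, SE 0.15), Hspa2 (0.41, SE 0.19) and Hspb7 (0.53, SE 0.26). With 1 library left out, Dnajb12 stood as low as 0.17 (without PD-1 library 2), Dnajc27 as low as 0.24 (without LY500307+PD-1 library 3) and Hspa2 as low as 0.27 (without LY500307+PD-1 library 1). Since this comparison and the first share the PD-1 libraries, a gene such as Hsp90aa1 or Dnajc27 that stood apart in PD-1 enters both with opposite signs.

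The inducible genes again had wide intervals in LY500307+PD-1 against PD-1, with log2 fold changes of -0.28 (-1.34 to 0.79) for Hspa1a, -0.13 (-1.10 to 0.85) for Hspa1b, -0.40 (-0.996 to 0.21) for Hsph1, -0.11 (-0.55 to 0.34) for Dnajb1, -0.18 (-0.80 to 0.43) for Hspa4l and 0.23 (-0.71 to 1.17) for Hspb1. Those of the abundant genes were -0.08 (-0.33 to 0.18) for Hspa8, 0.08 (-0.24 to 0.40) for Hsp90ab1, -0.17 (-0.38 to 0.04) for Dnaja1, 0.07 (-0.21 to 0.34) for Hspd1 and 0.00 (-0.22 to 0.22) for Hspe1. Without LY500307+PD-1 library 2 the sign turned for Hspa1a (0.0381), Hspa1b (0.14), Hspa4l (0.00906), Hspb1 (-0.23) and Hsp90ab1 (-0.0577). Hsph1 stood at -0.20 without PD-1 library 2.

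**Figure D5:**
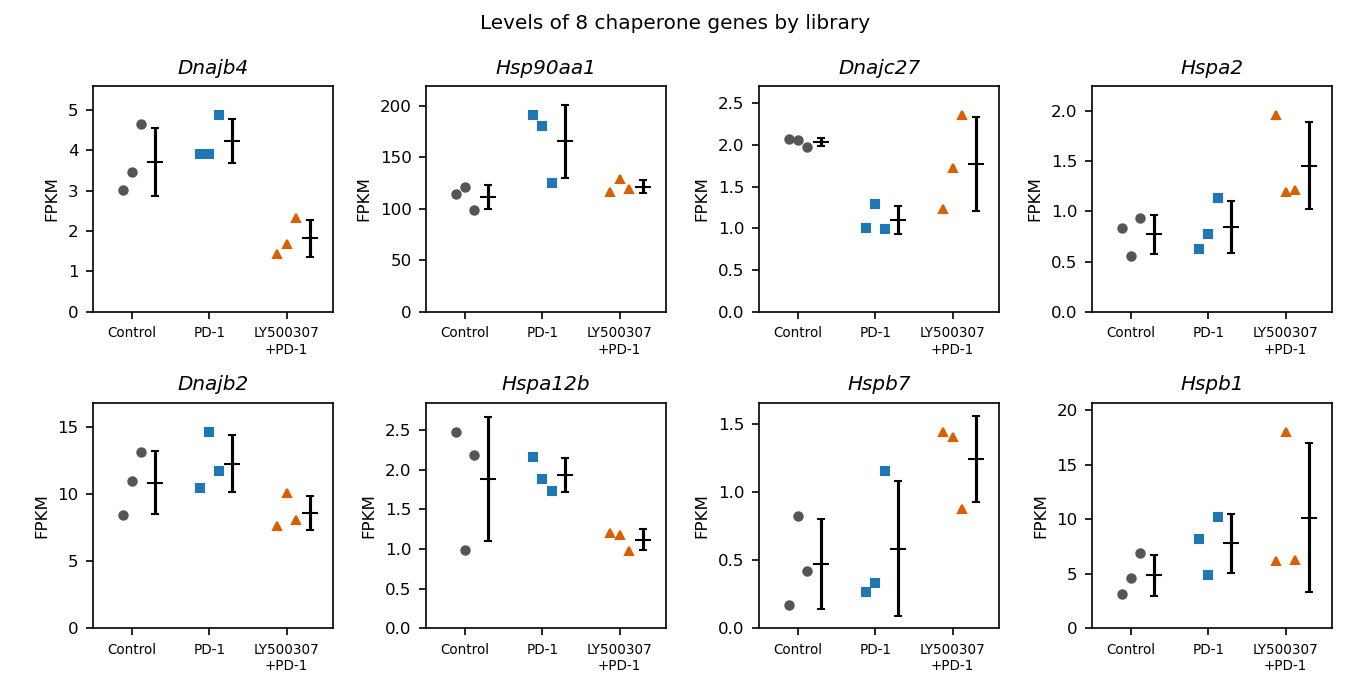
FPKM of 8 chaperone genes in each library, with the mean and SD of each group of 3 beside the points, on axes that start at 0. Dnajb4 reaches at most 2.33 FPKM in the LY500307+PD-1 libraries and at least 3.03 in every other library, and the single high point of Hspb1 is LY500307+PD-1 library 2.

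The partners of the chaperones were read from fixed lists, and 0 of their tested members passed in any comparison. Hsf1, the factor that drives the heat shock response, stood at 22.3 to 27.4 FPKM in all libraries, Hsf2 at 1.28 to 2.61, and Hsf4 and Hsf5 were not tested. The 32 cochaperones of Hsp70 and Hsp90 had median log2 fold changes of 0.02 in PD-1 against control (19 higher), 0.04 in LY500307+PD-1 against control (17 higher) and, for LY500307+PD-1 against PD-1, -0.03 (13 higher). They were led in both comparisons with control by Cacybp, which binds Siah ubiquitin ligases, at 32.8, 38.8 and 33.7 FPKM in control, 44.99, 42.4 and 50.05 in PD-1 and 42.7, 43.1 and 41.1 in LY500307+PD-1. Each treated library lay above each control library, with log2 fold changes of 0.38 (SE 0.10) and 0.27 (SE 0.10) and limma's adjusted p of 1 in each. Ppid, a prolyl isomerase bound to Hsp90, led the comparison of the treated groups with -0.28 (SE 0.12). Bag3, itself a target of heat shock factor 1, stood at 29.5 to 40.2 FPKM and Stip1, which hands clients from Hsp70 to Hsp90, at 82.0 to 101.0.

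Of the 14 subunits of the TRiC chaperonin and prefoldin, which fold actin and tubulin, 12 were higher in PD-1 than in control (median 0.11), 10 in LY500307+PD-1 than in control (0.09) and 7 in LY500307+PD-1 than in PD-1 (0.00). The 18 genes of the endoplasmic reticulum list, including the 5 chaperones left out of the set, had medians of 0.02, -0.01 and -0.02. That list was led in both comparisons with control by Manf, a secreted stress protein, at 42.4 to 46.6 FPKM in control, 51.0 to 65.8 in PD-1 and 54.5 to 57.1 in LY500307+PD-1, with log2 fold changes of 0.41 (SE 0.11) and 0.33 (SE 0.11). Between the treated groups it was led by Dnajb9, with -0.51 (SE 0.25).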

How the data were processed

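The table the authors deposited holds 1 value per gene and library, taken to be FPKM from its values, since the file does not name a unit. Stranded libraries came from Trizol RNA without its ribosomal part, per the labels' protocols. Of tools and builds, the submitters' processing notes list Bowtie2, CASAVA 1.8, DESeq2 and mm9, with no role or order. How genes were counted, with which annotation and strand setting, is not given in the sources used here. Symbols and positions come from GENCODE M21 on GRCm38, which held 99.7% of the 52550 identifiers. Of the 68 chaperone genes, 37 overlap another annotated gene.

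Depth came from low values. In genes with 1 transcript of 300 nt or more, FPKM times length fell near multiples of a step that points to between 16430000 and 17340000 steps per library, a ratio of 1.06, but only 43.3% to 45.6% of values lay within 0.05 of a whole step, so whole reads were not recovered and no count test was run.

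Genes at 1 FPKM or more in 3 libraries were kept (13990), and limma 3.58.1 (R 4.3.3) was run on log2(FPKM + 1) of all 9 libraries, with trend and robust moderation and Benjamini-Hochberg adjustment over all genes. The log scale understates changes of low genes. Alternatives were quantile normalization, no filter, 0.1 as pseudocount, a fit of the 6 libraries of a comparison alone, a replicate block and 1 library left out at a time. Counts without Hspa2 and Hspb7, and the count of correlated members without control library 1, were added after seeing the data. Named genes were 12 inducible or abundant members throughout, the 4 with the smallest p in each direction per comparison, the 8 highest, the 8 most variable and the 6 genes most correlated with Hspa1a. The gene of smallest p in each other list was planned too, but is given only for the cochaperone and endoplasmic reticulum lists. Other members are given by range. Hspa5, Krt5, Krt14, Cryab, Bag3, Stip1 and the steady members were named after their values were seen. The chaperone genes, lists and tests were chosen with earlier results of these data known. Protein features were planned but not computed. Python 3.11.15, pandas 2.3.3, biopython 1.88 and matplotlib 3.10.9 were used.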

Additional observations from a re-analysis of the deposited data

How the results depend on the processing

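The count of chaperone genes called was 0 in each comparison under every alternative run, and the smallest adjusted p of a member over the 14 alternatives was 0.41 (Hsp90aa1 in PD-1 against control, without PD-1 replicate 3), 0.68 (Hspa12b in LY500307+PD-1 against control, without control replicate 2) and 0.85 (Dnajb4 in LY500307+PD-1 against PD-1, only the 6 libraries compared). With the replicate block, 0 genes were called in each comparison. Same-numbered libraries of different groups had deviations correlated between -0.12 and 0.27, over 0.1 in 3 of 9 pairs. Libraries of other numbers had correlations between -0.36 and 0.26, over 0.1 in 3 of 18 pairs. Correlations this weak cannot tell whether the numbers pair the libraries. Leaving out 1 library gave 0 to 1 genes called in PD-1 against control, 0 to 2 in LY500307+PD-1 against control and 0 to 2 in LY500307+PD-1 against PD-1, and the chaperone median in PD-1 against control ran from 0.0152 to 0.0697. The other alternatives turned no log2 fold change of a named member.

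Leaving out 1 library turned the direction of 18 of 55 log2 fold changes of named members, none of them called, and the cause was not tested. In PD-1 against control the ranges were -0.33 to 0.66 for Hspa1a, -0.22 to 0.66 for Hspa1b, -0.0164 to 0.33 for Dnajb1, -0.17 to 0.00565 for Hsp90ab1 and -0.0111 to 0.17 for Hspd1. In LY500307+PD-1 against control they were -0.61 to 0.39 for Hspa1a, -0.35 to 0.53 for Hspa1b, -0.12 to 0.22 for Dnajb1, -0.0406 to 0.0491 for Dnaja1, -0.12 to 0.12 for Hsp90ab1 and -0.17 to 0.31 for Hspa4l. In LY500307+PD-1 against PD-1 they were -0.54 to 0.0381 for Hspa1a, -0.36 to 0.14 for Hspa1b, -0.0577 to 0.18 for Hsp90ab1, -0.36 to 0.00906 for Hspa4l, -0.23 to 0.47 for Hspb1, -0.0157 to 0.12 for Hspd1 and -0.0498 to 0.0418 for Hspe1. Depth per library is known only from steps in the low values, so no counting interval is given for members near 1 FPKM.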
